A study of Mus musculus with 18 samples.

Results

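The contacts of the Eomes promoter in definitive endoderm (DE) were set against those of 3 enhancers of the same gene, VPE, PSE_a and PSE_b, over chromosome 9. The members were chosen by label and column name: the promoter viewpoint in 3 promoter captures and the 3 enhancer viewpoints in 3 enhancer captures of DE, which make 6 of the 18 captured samples of the series and 12 columns of values. The DE cells were day 5 derivatives of embryonic stem cells (ESC) of the 129/Sv//EV strain, grown without LIF as embryoid bodies and then in N2B27 medium with ActivinA and EGF. The 6 ESC captures of the same viewpoints, from undifferentiated day 0 cells of that strain, entered only where stated. No genetic change separated the groups. By their labels the promoter and enhancer captures with the same number came from 1 chromatin library, so the viewpoints are not independent of each other. The main tests of bins compared viewpoints within the 3 libraries, while the exact permutation tests between viewpoints ignored this pairing. Whether the 3 libraries came from separate cultures is not given in the sources used here, and the p-values then measure only the spread between these libraries. The tests of single bins pool that spread over many bins. Embryoid body cultures hold several cell types, the libraries hold no RNA by which the cell type label could be checked, and a contact made often in few cells cannot be told apart from one made rarely in many.

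Eomes encodes a T-box transcription factor needed for the specification of definitive endoderm, and the gene is silent in ESC and expressed in DE. Enhancers act on promoters that can lie some distance away on the same chromosome, and contacts between such elements are far more frequent within a chromatin domain than across its edges, which are often marked by binding sites of CTCF. NG Capture-C measures such contacts: crosslinked chromatin is cut with DpnII, neighbouring ends are ligated, and fragments joined to a chosen viewpoint are pulled down with biotinylated oligonucleotides and counted.

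The 4 viewpoints lay within 21.1 kb on chromosome 9 (NCBIM37, mm9; GENCODE gene models). Captured zones were inferred from runs of fragments without values, and the enhancer zones were named by their order along the chromosome. By this reading, PSE_a was captured at chr9:118376738-118378092, PSE_b at chr9:118380281-118382070 and the promoter at chr9:118385066-118388645. Both PSE zones are intergenic, and the promoter zone spans the transcription start site (TSS) of Eomes at 118387330 on the plus strand. VPE, named for activity in visceral endoderm and primitive streak, was captured at chr9:118394813-118397837, across and beyond the 3′ end of the gene at 118395250. The DpnII ends below show where 1 fragment of each captured zone starts, which need not be the fragment that the oligonucleotides targeted. They are shown because a contact is read as a ligation at such an end, and each is given as the plus strand from 5′ to 3′ with the DpnII site in capitals. The promoter stretch reaches from the DpnII site between the fragments before and across the TSS to the base before the TSS, chr9:118387177-118387329. The left edge end, chr9:117959154-117959213, lies in Azi2 and begins the fragment with the most reads in the 50 kb block described below.
promoter fragment, left end: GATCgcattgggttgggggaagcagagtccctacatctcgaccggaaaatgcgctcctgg
VPE fragment, left end: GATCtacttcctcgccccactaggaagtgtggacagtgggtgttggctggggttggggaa
PSE_a fragment, left end: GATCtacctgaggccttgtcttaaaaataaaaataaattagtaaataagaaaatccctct
PSE_b fragment, left end: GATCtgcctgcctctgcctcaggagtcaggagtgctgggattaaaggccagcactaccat
promoter up to the TSS: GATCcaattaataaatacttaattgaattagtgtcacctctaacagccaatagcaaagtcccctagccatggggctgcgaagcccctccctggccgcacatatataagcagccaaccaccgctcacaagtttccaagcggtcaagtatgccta
left edge fragment, left end: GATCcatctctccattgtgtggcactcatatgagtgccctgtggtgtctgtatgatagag

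Depth differed between the viewpoints. The DE libraries held between 33673 and 55736 interactions from the promoter, between 36973 and 72117 from VPE, between 19432 and 29011 from PSE_a and between 17581 and 29079 from PSE_b. Of these, 58.8% ± 1.07 (SD, n = 3), 56.5% ± 1.59, 46.3% ± 2.06 and 59.9% ± 1.02 lay on chromosome 9, so PSE_a had the lowest share in cis. Contacts farther than 20 kb from every captured zone, called far cis here, numbered between 6867 and 34706 reads per column, and levels are given per 100000 of them unless stated otherwise. Fragments of the 3 enhancer zones held no values from any enhancer viewpoint, and those of the promoter zone none from the promoter, so contacts between the enhancers were not measured.

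All 4 viewpoints lay in 1 domain, with left edges within 15 kb of each other. Edges were set on the ESC promoter libraries, so that no DE value chose them, at 117940000 on the left, 447 kb upstream of the TSS, and at 118435000 on the right, 47.7 kb downstream. The right edge was the nearest position the search allowed, so an edge closer to the gene could not have been found. From the pooled DE libraries the left edge fell at 117930000 for the promoter, 117940000 for VPE, 117945000 for PSE_a and 117930000 for PSE_b, and the right edge at the first position searched for all 4, which says little of where it lies. In single libraries the right edge of PSE_a fell at 118505000, 118515000 and 118435000, and that of PSE_b at 118835000 in library 2. Over 206 bins of 5 kb, the log2 levels of 2 columns of different viewpoints correlated with a median Pearson r between 0.86 and 0.92, beside medians between 0.81 and 0.95 for 2 libraries of 1 viewpoint. These correlations are across bins that share libraries and a common fall with distance, and the lowest within-viewpoint value was that of PSE_a.

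**Figure D1:**
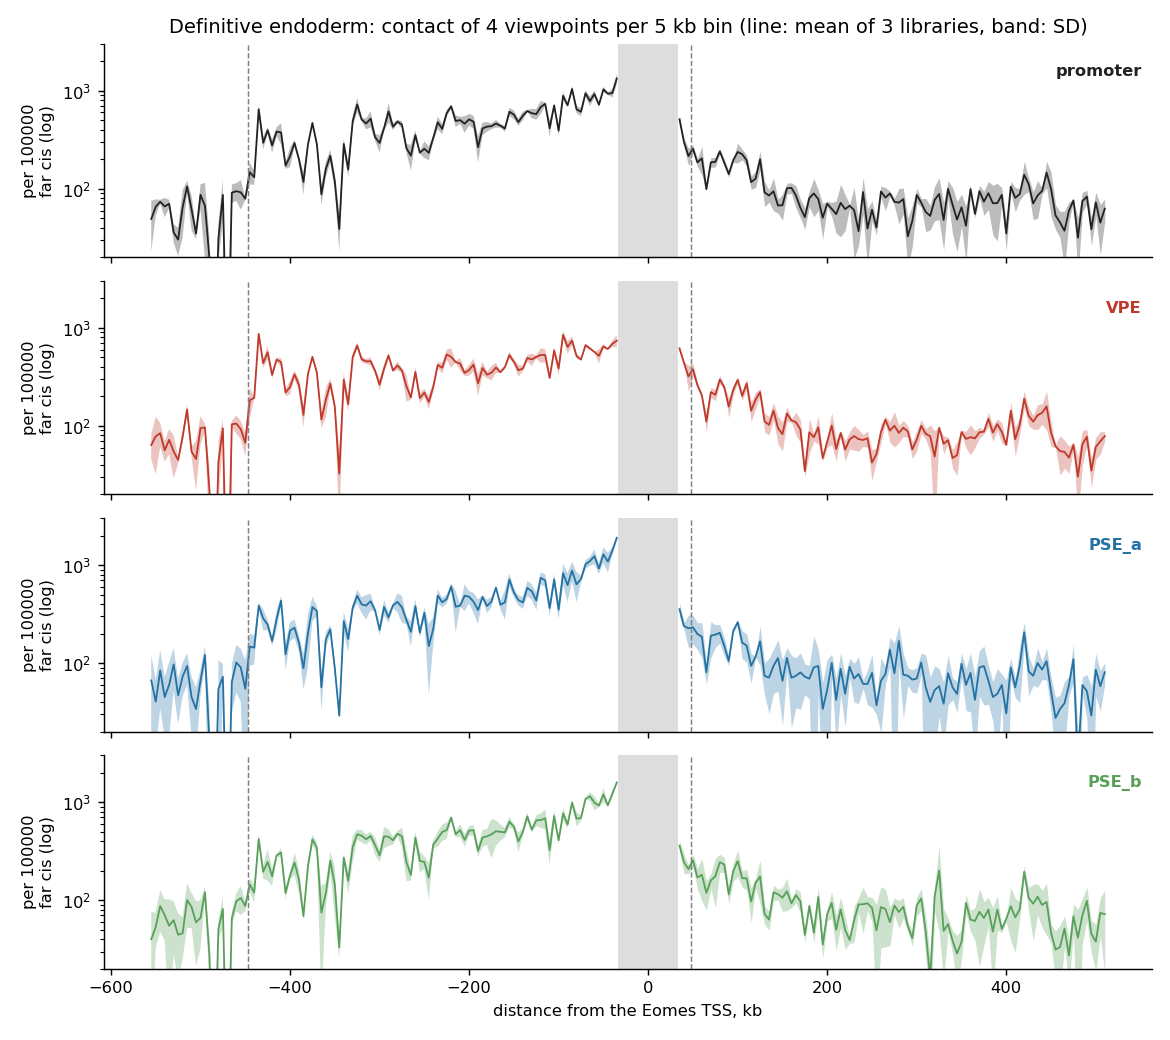
Level of contact per 5 kb bin (vertical axis, interactions per 100000 far cis, log scale from 20) against the distance from the Eomes TSS in kb, with 1 panel for each viewpoint in DE; the line is the mean of 3 libraries, the band its SD, and the grey block the near field that was left out. All 4 profiles stay high from the left edge, 447 kb upstream, to the gene and are low beyond it.

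The share of far cis contacts inside the domain was lower from VPE than from the other viewpoints. It was 41.8%, 39.4% and 40.9% from the promoter in libraries 1, 2 and 3, and 36.4%, 35.1% and 36.6% from VPE. PSE_a had 40.9%, 38.8% and 39.3%, and PSE_b 40.8%, 39.8% and 40.1%. Every VPE library was therefore below every library of the other 3 viewpoints, which overlapped among themselves. With the near field left out, most of the domain counted lies upstream, where VPE is the farthest viewpoint, and the part of distance was not tested. In ESC too every VPE library was below those of the other viewpoints, with means of 35.4% from VPE, 39.3% from the promoter, 42.2% from PSE_a and 42.3% from PSE_b. Unlike in DE, every ESC promoter library was also below every library of PSE_a and PSE_b. Promoter minus VPE was 4.69 points of percent (p = 0.1 by an exact two-sided permutation of 3 values against 3, which can give no lower p). This test ignored that the viewpoints share libraries, and exact sign flips within libraries can give no p below 0.25. Promoter minus PSE_a was 1.05 points (p = 0.2, exact test) and promoter minus PSE_b 0.471 points (p = 0.6, exact test). Over the 36 comparisons of 6 measures between 6 pairs of viewpoints, the lowest adjusted p was 0.225, so no difference in these measures passed a threshold of 0.05.

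As a share of cis contacts, the near field was fuller at the PSE elements and emptiest at VPE. Of all cis contacts, 23.1% ± 0.608 (SD, n = 3) lay within 50 kb of the centre of the promoter viewpoint, 20.2% ± 0.323 for VPE, 28.7% ± 1.51 for PSE_a and 26.1% ± 0.771 for PSE_b. The libraries of no pair of viewpoints overlapped (p = 0.1 for each pair, exact permutation). As a share of all interactions, promoter minus PSE_a turned to 0.305 points, so the order of these viewpoints depended on the total. The zones without values near each viewpoint differ in length, 3.58 kb for the promoter against the sum of the 3 enhancer zones for the enhancers, and their part in this measure was not tested. Contacts 50 to 300 kb upstream outnumbered those at the same distance downstream 4.98 ± 0.218 times from the promoter, 3.68 ± 0.194 times from VPE, 4.36 ± 0.155 times from PSE_a and 4.71 ± 0.378 times from PSE_b. The promoter libraries overlapped those of PSE_b but not those of VPE or PSE_a.

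Beyond the domain the viewpoints overlapped in the fall of contact with distance. Between 1 and 30 Mb the slope of log10 contact per kb against log10 distance was -0.865 ± 0.0157 (SD, n = 3) from the promoter, -0.876 ± 0.0324 from VPE, -0.855 ± 0.0234 from PSE_a and -0.851 ± 0.0350 from PSE_b, and every pair of viewpoints overlapped. The step at the right edge, the log2 ratio of contact in the 25 kb inside over the 25 kb outside, was 1.46 ± 0.14 from the promoter, 1.65 ± 0.19 from VPE, 1.17 ± 0.34 from PSE_a and 1.21 ± 0.25 from PSE_b, where all pairs overlapped too. Within each of the 3 libraries, however, VPE had the highest right edge step of the 4 viewpoints and a steeper slope than both PSE elements. For the step, promoter minus VPE was -0.19 (p = 0.25 by exact sign flips within libraries, the lowest that 3 pairs can give). These spreads are wide against the differences, so a like slope or step is not shown by them.

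The left edge was sharper from the promoter and VPE than from PSE_b. Contact in the 50 kb inside was 5.27, 5.48 and 5.51 times that in the 50 kb outside from the promoter, 5.67, 6.18 and 7.35 times from VPE, 3.30, 4.35 and 5.76 times from PSE_a, and 3.94, 3.61 and 2.88 times from PSE_b. The promoter libraries lay below all VPE libraries and above all PSE_b libraries (log2 difference -0.23 and 0.65, with p = 0.1 in either case by exact permutation), while PSE_a overlapped the promoter and VPE.

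**Figure D2:**
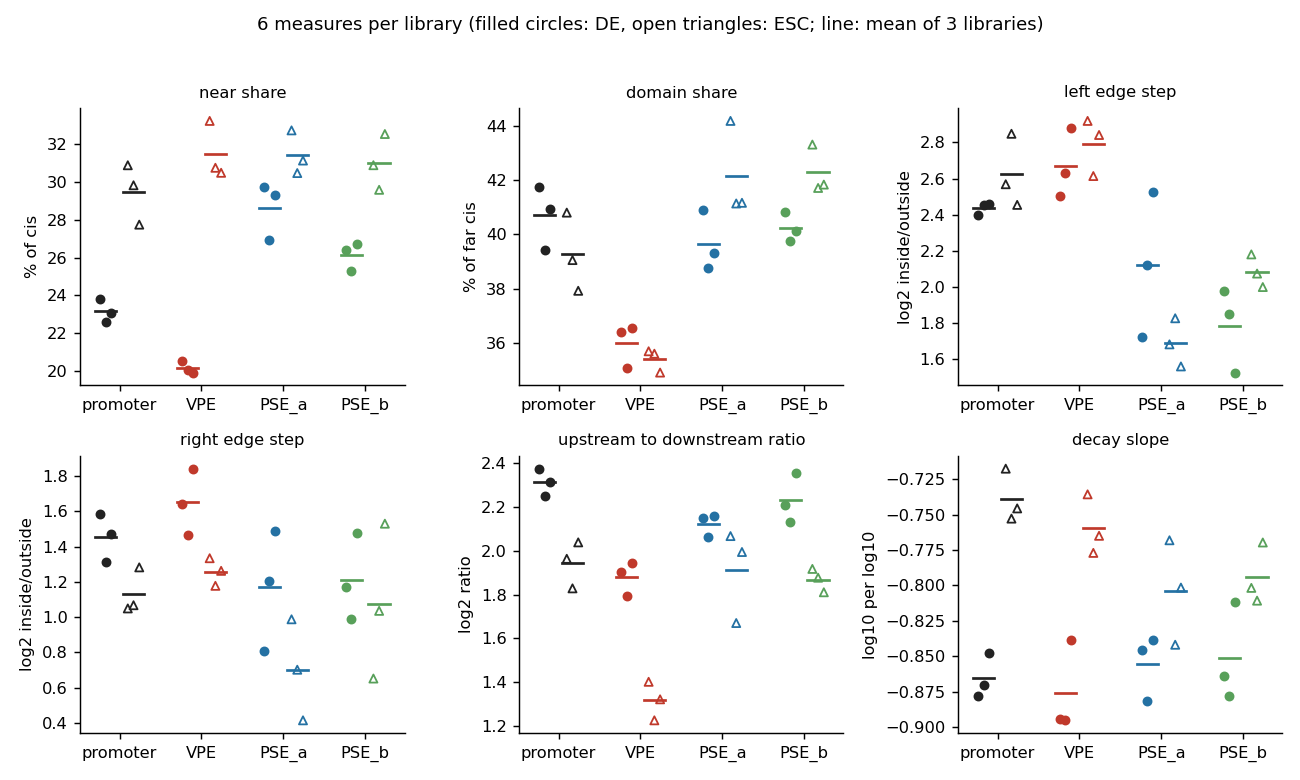
The 6 measures of domain, edge and decay (vertical axes, in the unit of each panel) for each viewpoint (horizontal axis), with 1 point per library; filled circles are DE, open triangles ESC, and lines the means of 3 libraries. In DE the domain share of VPE, with a mean of 36.0%, lies apart from the other 3, whose means are between 39.7% and 40.7%, while slopes and right edge steps overlap.

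VPE made the most contact with the block just inside the left edge, although it was the farthest from it. This block, chr9:117940001-117990000, holds Azi2, which encodes an adaptor of the kinase TBK1, and the end of Cmc1, which encodes a factor for cytochrome c oxidase assembly. From VPE it held 3840, 3973 and 4100 contacts per 100000 far cis in libraries 1, 2 and 3, from the promoter 3191, 2944 and 2978, from PSE_a 2557, 2300 and 2432, and from PSE_b 2388, 2133 and 2062. The order VPE, promoter, then both PSE elements held in every library, with no overlap between these 3 levels, while PSE_a and PSE_b overlapped. VPE had 1.31 times the mean of the promoter, 1.63 times that of PSE_a and 1.81 times that of PSE_b. The promoter had 1.25 times the mean of PSE_a and 1.38 times that of PSE_b. The centre of the block lies 431 kb from VPE, 422 kb from the promoter, 412 kb from PSE_a and 416 kb from PSE_b. Scaled to all cis contacts or to all interactions, the promoter had 0.748 and 0.779 times the level of VPE in the block, again with no overlap.

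In the 50 kb outside the same edge no such order was seen. The promoter had 561 ± 38.2 (SD, n = 3) contacts there, VPE 626 ± 61.3, PSE_a 576 ± 181 and PSE_b 638 ± 67.8, and all pairs overlapped. Nearer to the gene the order followed the positions of the viewpoints. In the 100 kb that begin 20 kb upstream of PSE_a, the promoter had 1.35 times the contact of VPE and VPE 0.658 times that of PSE_a. Downstream, in the 100 kb that begin 20 kb past VPE, VPE had 1.27 times the contact of the promoter. In both flanks the nearer viewpoint had the higher level, and the part of distance in these differences was not tested.

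**Figure D3:**
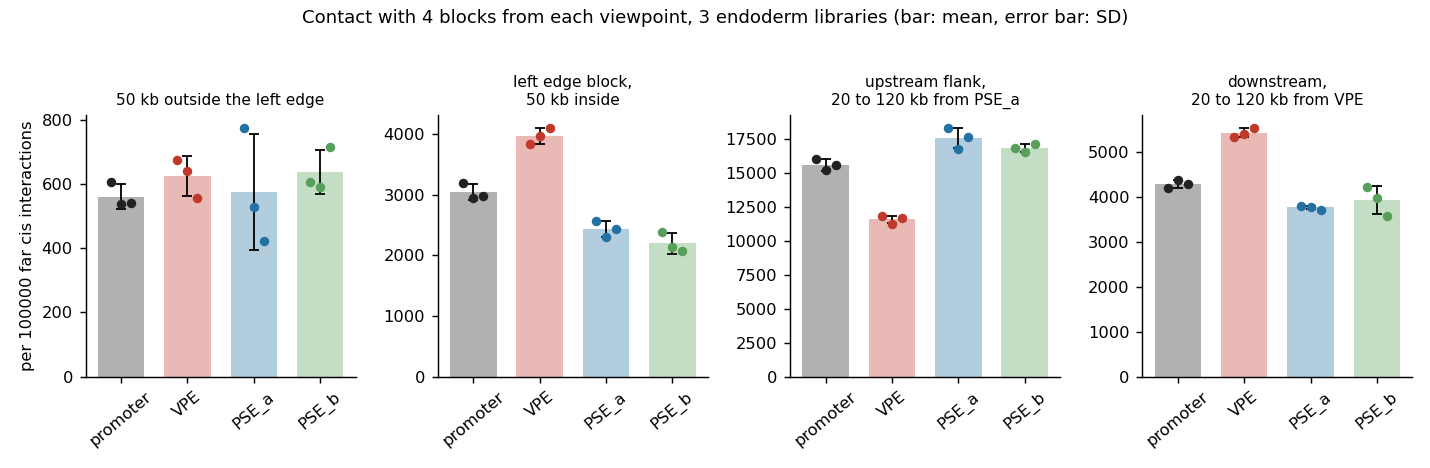
Contact of each DE viewpoint (horizontal axis) with 4 blocks (panels), in interactions per 100000 far cis (vertical axis, from 0); points are the 3 libraries, bars their mean and error bars the SD. In the left edge block VPE, with a mean of 3971, stands above the promoter at 3038, PSE_a at 2430 and PSE_b at 2194, whereas the 4 viewpoints overlap outside the edge.

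Bin by bin, contact was higher from the promoter in the near upstream region and higher from VPE at both ends of the domain. Of 606 bins of 5 kb with at least 30 reads, 26 (4.29%) differed between the promoter and VPE (limma with the library as a block, Benjamini-Hochberg adjusted p under 0.05). Of these, 16 (2.64% of those tested) were higher from the promoter and 10 (1.65%) were lower. The 16 that were higher all lay among the 74 tested upstream bins of the domain outside the left edge block, between -222 kb and -32.3 kb from the TSS. Of the 10 bins of the left edge block, 3 were lower from the promoter, and all 10 had a log2 difference below 0. Of the 4 downstream bins of the domain, all at Golga4, 3 were lower, and the remaining 4 lower bins lay outside the domain, 1 on the left and 3 on the right. The downstream bin nearest the gene is cut by the near field, so the fit used only its fragments outside it. Without library 2 the count was 8, all higher from the promoter, so that no bin of the left edge block was called. It was 1 with DESeq2, 7 with all 4 viewpoints in the fit, and 26 with edgeR.

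The strongest bin was chr9:118350001-118355000, upstream of PSE_a, with its centre -34.8 kb from the TSS. It held 1521, 1273 and 1209 contacts per 100000 far cis from the promoter and 808, 798 and 617 from VPE, with no overlap (log2 difference 0.84, standard error 0.07, adjusted p = 4.7e-27 from limma). It was called under all 16 settings tried. The bins at -59.8 kb and -49.8 kb followed, with log2 differences of 0.70 and 0.66. No gene is annotated in any of the 3.

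Within Azi2, the bin chr9:117950001-117955000 held 575, 651 and 713 contacts from the promoter and 871, 870 and 866 from VPE, so that every VPE library was higher (log2 difference -0.43, standard error 0.09, adjusted p = 7.9e-05 from limma). The next bins, from 117955001 and from 117960001, gave log2 differences of -0.56 and -0.50 and were called as well. The 3 fragments with the most reads in the block all lie in Azi2 and held 56, 55 and 41 reads from the promoter and 96, 88 and 98 from VPE. Reads here and below are not scaled to depth, which was greater for VPE in every library. The largest falls from the promoter lay outside the domain and rested on few reads. The bin at 290 kb in Itga9, an integrin alpha subunit gene, held 22 promoter reads and 70 VPE reads (log2 difference -1.29, adjusted p = 0.0054 from limma). That at 630 kb in Dlec1 held 29 and 87 reads, and that at -620 kb 14 and 52. They were called in 11, 11 and 10 of 16 settings.

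**Figure D4:**
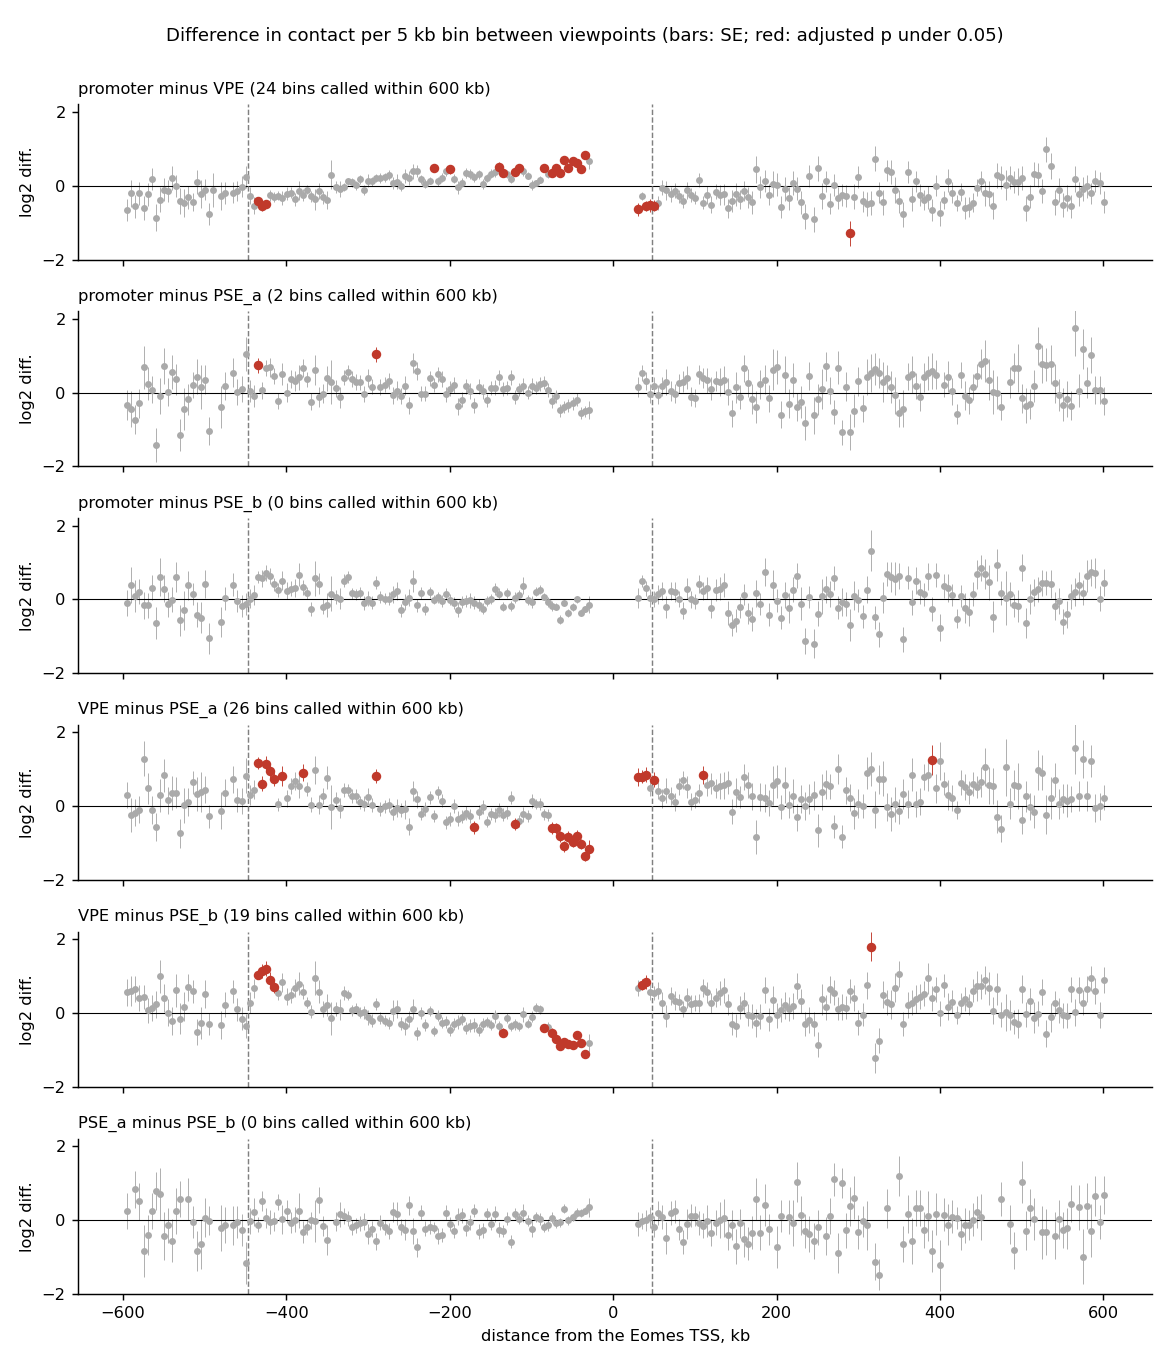
Log2 difference in contact per 5 kb bin between 2 viewpoints (vertical axis) against the distance from the Eomes TSS in kb, with 1 panel per pair; points are limma estimates, bars their standard errors, red points passed an adjusted p of 0.05, and dashed lines mark the domain edges. Promoter minus VPE is above 0 upstream of the gene and below 0 near -435 kb and downstream, and VPE minus either PSE element shows the mirror of it.

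The promoter differed from the PSE elements in few bins or none. Against PSE_a, 2 of 328 bins (0.61%) were higher from the promoter and none was lower. The Azi2 bin above held 412, 391 and 349 contacts from PSE_a, below every promoter library (log2 difference 0.73, adjusted p = 0.041 from limma), but it was called in only 9 of 16 settings, with edgeR and DESeq2 among those that lost it. The other, chr9:118095001-118100000 with its centre -290 kb from the TSS, held 575, 500 and 770 contacts from the promoter and 268, 333 and 277 from PSE_a (log2 difference 1.03, adjusted p = 0.00030 from limma). Without library 2 the count was 1, and without library 3 it was 4, of which 2 were lower. With all interactions as the total, in place of far cis, 40 bins were called, all higher from the promoter, beside a lower share of PSE_a interactions in cis. Against PSE_b, 0 of 367 bins (0%) were called by limma, edgeR or DESeq2, and 32, 28 and 6 bins had an unadjusted p under 0.05. All 10 bins of the left edge block were nevertheless above 0 for promoter minus PSE_b, with a median log2 difference of 0.46, against 0.07 over all bins tested. PSE_a and PSE_b differed in 0 of 239 bins (0%) by each of the 3 tools, with 15, 12 and 1 bins at an unadjusted p under 0.05. Bins that were not called are not shown to be alike.

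Against both PSE elements too, contact from VPE was higher at the ends of the domain and lower in the near upstream region. Against PSE_a, 28 of 440 bins (6.36%) were called, 16 (3.64%) higher from VPE and 12 (2.73%) lower. Of the 10 bins in the left edge block 6 were higher, while of 74 in the rest of the domain upstream 12 were lower, the nearest at -29.8 kb, and 2 farther out were higher. Without library 2 limma called 0 bins, without library 3 it called 4, and without library 1 it called 18. Against PSE_b, 20 of 485 bins (4.12%) were called, 8 (1.65%) higher and 12 (2.47%) lower. Of the 10 left edge bins 5 were among the higher ones, and the count was 13 without library 2. These comparisons use the same VPE columns as promoter against VPE, so the overlaps are not independent: of the 16 bins higher from the promoter than VPE, 10 were also lower from VPE than PSE_a, which is 62.5% of the first list and 83.3% of the second. The bin at -34.8 kb held 1820, 1967 and 1908 contacts from PSE_a and 1592, 1555 and 1625 from PSE_b, all above the VPE libraries (VPE minus PSE_a -1.36, VPE minus PSE_b -1.10 on the log2 scale), and the promoter mean lay between. Next to it, the bin at -29.8 kb gave -1.16 for VPE minus PSE_a, and the bin at -64.8 kb gave -0.88 for VPE minus PSE_b. The bin at -29.8 kb is cut by the near field, so the fit used only its fragments outside it.

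On the side of VPE, the Azi2 bins led. The bin from 117950001 was higher from VPE than from PSE_a by 1.16 on the log2 scale, the bin from 117955001 higher than from PSE_b by 1.13, and the bin from 117960001 higher than from PSE_b by 1.21, the last in all 16 settings. The first of these held 871, 870 and 866 contacts from VPE, beside 473, 415 and 376 from PSE_b. Larger differences rested on few reads, given here unscaled although VPE had the greater depth. A bin of Itga9 at 315 kb held 61 VPE reads and 6 PSE_b reads (log2 difference 1.80, adjusted p = 0.011 from limma), and another at 390 kb held 86 VPE reads and 12 PSE_a reads (1.24, adjusted p = 0.042 from limma, called in 4 of 16 settings). A bin at -710 kb held 58 VPE reads and 5 PSE_a reads and was likewise called in 4 of 16 settings. A bin in Rbms3, an RNA-binding protein gene at -1245 kb, went the other way, with 10 VPE reads and 21 PSE_b reads

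Of the 4 windows of 5 kb at distances by which the study names upstream elements, 3 were higher from the promoter than from VPE, and the same 3 were higher from PSE_a and from PSE_b than from VPE. At -38 kb the level was 1002 ± 138 (SD, n = 3) from the promoter, 696 ± 49.5 from VPE, 1500 ± 117 from PSE_a and 1333 ± 74.9 from PSE_b. Promoter minus PSE_a was -0.58 (adjusted p = 0.041 from limma). This call held in 8 of 15 settings and was lost with DESeq2 and without any 1 of the libraries. No other window was called between the promoter and a PSE element in the fit reported, although promoter minus PSE_b at -38 kb passed in 5 of 15 settings. At -45 kb the level was 868 ± 19.9 from the promoter and 577 ± 4.67 from VPE (log2 difference 0.58, adjusted p = 1.1e-08 from limma). At -73 kb it was 928 ± 51.9 and 732 ± 53.8 (log2 difference 0.34, adjusted p = 0.00094 from limma). Promoter against VPE was called in 14 of 15 settings at -38 kb and at -45 kb and in 12 at -73 kb, and DESeq2 called none of the 3. The -73 kb call was also lost without library 3 and with all 4 viewpoints in the fit. Without library 2, VPE against PSE_a was called in none of the 3 windows. The window at -93 kb was called in no pair. Against a monotone fit of contact on distance on the same side, the -45 kb window had a mean ratio between 0.789 and 0.912 from the 4 viewpoints and the -38 kb window between 0.896 and 0.987, so neither stood above the fit at any viewpoint. The -73 kb window had a ratio between 1.16 and 1.24 from all 4.

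Among gene starts, contact with Azi2 was 311 ± 74.2 (SD, n = 3) from the promoter, 404 ± 20.7 from VPE, 192 ± 49.2 from PSE_a and 227 ± 43.1 from PSE_b. Promoter minus VPE was -0.39 (adjusted p = 0.090 from limma), and VPE was higher than PSE_a by 1.06 and than PSE_b by 0.82, both called, each in 13 of 15 settings. At Cmc1 the promoter and VPE had 603 ± 67.5 and 612 ± 76.9, and PSE_a and PSE_b 407 ± 64.3 and 364 ± 51.5. VPE was called higher than both, in 11 and 14 of 15 settings, whereas promoter minus PSE_b was 0.72 (adjusted p = 0.088 from limma, past the threshold in 6 of 15 settings). Golga4, a golgin gene that starts 28.1 kb downstream of the Eomes TSS and nearest to VPE, had 944 ± 128 contacts from the promoter and 1403 ± 76.7 from VPE (log2 difference -0.57, adjusted p = 2.5e-16 from limma, called in 14 of 15 settings, DESeq2 excepted). Its window lies almost wholly in the near field, which the bins and the far cis total leave out. The centre of the window is 19.1 kb from VPE and 28.5 kb from the promoter, and the part of distance was not tested. Without library 2 none of these gene starts was called for VPE against PSE_a. The starts of Zcwpw2 and Itga9, beyond the left and the right edge, had mean levels of 202 or lower and were called in no pair.

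The promoter fragments themselves, the 2 fragments that overlap 1 kb to each side of the TSS, were contacted by the 3 enhancers at levels that overlapped. VPE had 710, 602 and 671 contacts with them per 100000 far cis in libraries 1, 2 and 3, PSE_a 661, 607 and 582, and PSE_b 701, 633 and 788. All 3 overlapped, with log2 differences of 0.10 for VPE minus PSE_a, -0.09 for VPE minus PSE_b and -0.19 for PSE_a minus PSE_b (adjusted p = 0.84, 0.74 and 0.96 from limma). The enhancers lie at different distances from these fragments, 7.53 kb for VPE, 9.19 kb for PSE_a and 5.21 kb for PSE_b. Against fragments at 0.5 to 1.5 times that distance, the promoter fragments held 1.70 ± 0.107 (SD, n = 3) times the contact per fragment from VPE, 1.15 ± 0.0554 times from PSE_a and 1.07 ± 0.111 times from PSE_b, so every VPE library was above every PSE library. The comparison set held 29, 36 and 14 fragments. These ratios were not corrected for fragment length, and the promoter fragments are 1.044 and 1.467 kb long. A ratio above 1 is therefore not shown to be contact above that of the surroundings per kb. With the promoter widened to 2 kb on each side, VPE minus PSE_b became -0.22 (adjusted p = 0.010 from limma, called in 9 of 15 settings).

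The enhancers also differed in how their contact was split around the TSS, a comparison chosen after its values were seen and given without a test. The fragment just before the TSS, up to the DpnII site that opens the promoter sequence above, held 241 ± 35.2 (SD, n = 3) contacts per 100000 cis from VPE, and the fragment across the TSS 307 ± 45.7. From PSE_a these were 313 ± 48.3 and 166 ± 25.2, and from PSE_b 365 ± 2.26 and 195 ± 58.7. The ratio of the second to the first was 1.59, 1.32 and 0.982 in the VPE libraries, and between 0.385 and 0.739 in the 6 PSE libraries. The fragments differ in length, 1.044 kb before and 1.467 kb across the TSS. Per kb, the ratio was 1.13, 0.941 and 0.699 in the VPE libraries and between 0.274 and 0.526 in the PSE libraries. The PSE elements thus had more contact before the TSS on either count, while for VPE the higher side depended on the count and the library, and every VPE ratio was above every PSE ratio.

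Seen from the promoter, the VPE zone held 781 ± 30.9 (SD, n = 3) contacts per 100000 cis, PSE_a 678 ± 44.2 and PSE_b 860 ± 110. Per kb of zone the levels were 258 ± 10.2, 500 ± 32.6 and 480 ± 61.7, since the zones differ in length. Against fragments at matched distance the ratio per fragment was 1.37 ± 0.0424 for VPE, 0.639 ± 0.0416 for PSE_a, whose zone includes 5 short fragments, and 1.25 ± 0.188 for PSE_b. The order of the enhancers therefore changed with the way contact was counted.

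**Figure D5:**
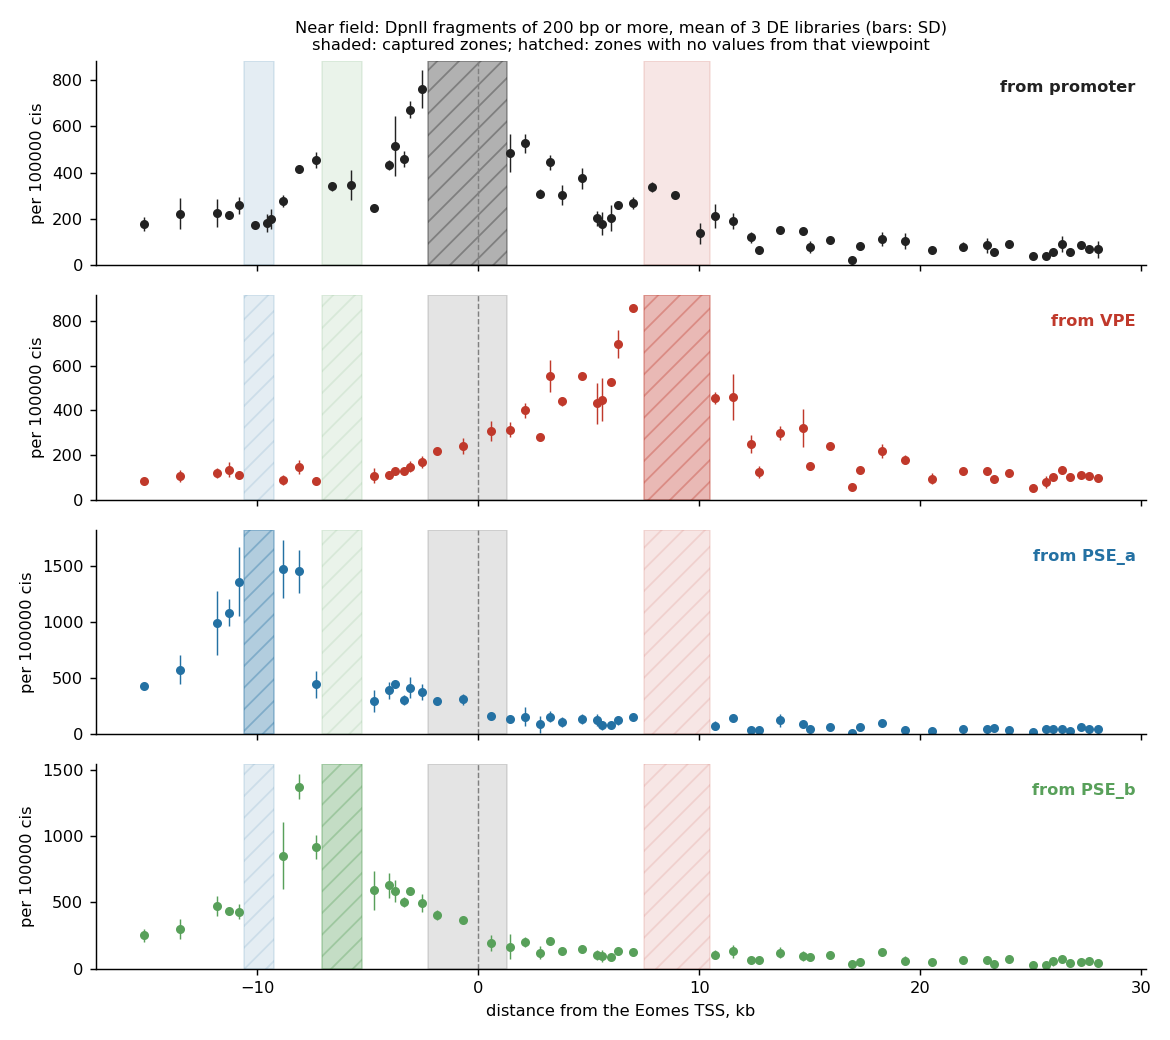
Contact of single DpnII fragments near Eomes (vertical axis, interactions per 100000 cis, from 0) against the distance from the TSS in kb, with 1 panel per DE viewpoint; points are means of 3 libraries, bars the SD, shaded stretches the captured zones, hatched zones hold no values from that viewpoint, the dashed line is the TSS, and each panel has its own scale. From the enhancers the promoter zone is filled, with 241 to 365 contacts in the fragment before the TSS, and from the promoter the 3 enhancer zones are.

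How far contacts above the decay were shared depended on the fit. A bin within 1 Mb was counted as raised where its level was at least 1.5 times a monotone fit against distance in all 3 libraries of a viewpoint. Of 383 bins, 43 (11.2%) were raised from the promoter, 41 (10.7%) from VPE, 33 (8.62%) from PSE_a and 38 (9.92%) from PSE_b. In all, 62 bins (16.2%) were raised from any viewpoint and 19 (4.96%) from all 4, while 13 were raised from 3, 10 from 2 and 20 from 1 alone. Of those 20, 6 were raised from the promoter only, 6 from VPE only, 2 from PSE_a only and 6 from PSE_b only. The promoter and VPE shared 33, which is 76.7% of the bins of the promoter and 80.5% of those of VPE. A bin missed at 1 viewpoint may lie just under the ratio there, so a bin counted for 1 viewpoint is not shown to differ from the others. Of the 62 bins, 6 lay in the left edge block and 45 in the rest of the domain upstream of the gene. The fit joined both sides, and with a fit on each side alone only 15 bins were raised, 10 of them from 1 viewpoint, 5 from 2 or more and 1 of these from all 4. With both sides joined, 42 of 62 were raised from 2 or more, so the share of bins common to viewpoints turned with this choice.

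The 19 bins shared under the fit that joined both sides reached from Azi2 to -84.8 kb, and the ratios of bins below are against that fit. The first by its lowest ratio was the Azi2 bin from 117950001, with mean ratios of 3.82 from the promoter, 4.09 from VPE, 2.75 from PSE_a and 2.99 from PSE_b and a lowest value of 2.48 in any library. It was followed by chr9:118010001-118015000 in Cmc1, with a lowest ratio of 2.07, and by bins from 118060001 in the noncoding gene Gm17399 and from 117975001 in Azi2 and Cmc1, with 1.90 and 1.89. The fifth, from 118165001 where no gene is annotated, had 1.81. The 5 kb window at the Azi2 start overlaps the first bin. Against a fit on its own side, its mean ratios were 1.61 from the promoter, 1.59 from VPE, 1.08 from PSE_a and 1.35 from PSE_b.

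In ESC, where the gene is silent, VPE and the promoter were closer in the left edge block. VPE had 2926 ± 105 (SD, n = 3) and the promoter 2716 ± 276 contacts there, a ratio of 1.08 with overlapping libraries, against 1.31 in DE. The rest of the order was present in ESC too, without overlap. VPE had 1.41 times the mean of PSE_a and 1.37 times that of PSE_b, and the promoter 1.31 and 1.27 times. The block held 650 promoter and 724 VPE reads in ESC, against 1906 and 3216 in DE, and the part of depth was not tested. The difference between DE and ESC in the mean log2 ratio was -0.28 for promoter over VPE (p = 0.1, exact permutation, so not past 0.05). In the upstream flank promoter over VPE was 1.30 in ESC and 1.35 in DE, and in the downstream flank VPE over promoter was 1.51 and 1.27.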

How the data were processed

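NG Capture-C contacts of the Eomes promoter, VPE, PSE_a and PSE_b viewpoints were read from 3 DE libraries, each captured for promoters and for enhancers. The authors trimmed and mapped the reads with Capture-C scripts, for which the processing notes name Trim Galore, Bowtie and the mm9 build, and deposited a signal per DpnII fragment set to 100000 interactions for every viewpoint in every library, with replicates kept apart. The deposited signal was divided by what 1 read is worth, which gave whole reads for 100% of values within 0.05, and limma was the main test on the scaled signal. PCR copies without molecular identifiers are not independent molecules. Of the columns, 24 were used, 12 of them of DE, and 84 of other viewpoints and cells were not.

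Reads were summed in 5 kb bins farther than 20 kb from every captured zone, scaled to 100000 far cis interactions, and compared as log2 of that value plus a pseudocount of 10 with limma 3.58.1 (trend, library as a block, minimum of 30 reads, Benjamini-Hochberg, threshold 0.05). Differences are on that scale, which understates changes of bins with few reads. The limma p-values rest on a spread pooled over bins, so very low ones do not reflect 3 libraries of 1 bin alone. The pooling was stronger for some pairs than for others, so their counts of called bins come from tests of unlike strength. The pairing came from the letters in the labels. Over 206 bins, deviations of same-numbered libraries correlated between -0.065 and 0.23, and those of other-numbered libraries between -0.27 and 0.24. The pairing is therefore not shown by these values. Replicates differed beyond counting noise (chi-square over degrees of freedom between 1.18 and 1.69), so none was counted as a copy. Shares, steps and slopes were compared with exact permutation tests of 3 values against 3, which did not use the pairing by library. The bins named were up to 3 higher and 3 lower with the largest change and no overlap per pair, and up to 5 shared raised bins. Windows and gene starts came from the study text. Captured zones were inferred from runs of fragments without values near the TSS. The viewpoints, lists and windows were chosen with earlier results of these data known, and the blocks, the matched ratios of enhancer zones and the fragments around the TSS after the values were seen. The alternatives were pseudocounts of 2 and 50, other totals, TMM, read minimums, 10 kb bins, single fragments, edgeR 4.0.16, DESeq2 1.42.0, no replicate block, all 4 viewpoints in 1 fit, other windows and each library left out. The fits were tested on simulated data with changes of 2 times. Of these, limma recovered 53.5% for promoter against VPE, 50.6% for promoter against PSE_a and 50.8% for promoter against PSE_b. It recovered 37.5% for VPE against PSE_a, 57.5% for VPE against PSE_b and 43.7% for PSE_a against PSE_b. Software was R 4.3.3, Python 3.11.15, scipy 1.17.1, scikit-learn 1.9.0, pandas 2.3.3, numpy 2.4.6 and matplotlib 3.10.9.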

Additional observations from a re-analysis of the deposited data

Results flagged for a closer look

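The share of cis contacts within 50 kb of the viewpoint was higher from the promoter than from VPE in every DE library, by 3.26, 2.51 and 3.18 percentage points, and lower in every ESC library, by -2.35, -0.929 and -2.75 points. The opposite directions flagged it. The DE and ESC differences were 4.995 points apart (p = 0.1, exact permutation of 3 against 3, which can give no lower p). The share of far cis contacts in the domain was likewise higher from the promoter than from PSE_a in every DE library, by 0.845, 0.689 and 1.61 points, and lower in every ESC library, by -3.37, -2.08 and -3.23 points, a gap of 3.94 points between the cell types (p = 0.1, exact permutation). The DE difference in this share became -0.086 with 2 Mb to each side as the total. Values were compared over 18 such pairs of a measure and an enhancer, and neither p was below 0.05 before adjustment.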

How the results depend on the processing

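Counts of bins depended on the test and the total. For promoter against VPE, 26 bins became 41 with TMM scaling, 1 with single DpnII fragments, 1 with DESeq2, 7 with all 4 viewpoints in the fit, and 8 to 25 with 1 library left out. For promoter against PSE_a, 2 became 4 with no replicate block, 4 with a pseudocount of 2, 40 with all interactions as the total, 5 with TMM, 1 with a minimum of 10 reads, 6 with none, 6 with 60, 10 in 10 kb bins, 0 with fragments, 1 with edgeR, 0 with DESeq2, 5 with all 4 viewpoints, and 1 to 4 with 1 library left out. For promoter against PSE_b, 0 became 1 with no replicate block, 4 with a pseudocount of 50, 4 with all interactions, 4 with TMM, 3 with a minimum of 10 reads, 5 with none and 3 with fragments. For VPE against PSE_a, 28 became 104 with all interactions, 17 with no minimum, 9 with DESeq2, and 0 to 18 with 1 library left out. For VPE against PSE_b, 20 became 10 with DESeq2 and 13 to 29 with 1 library left out. For PSE_a against PSE_b, 0 became 29 with all interactions, 1 with all 4 viewpoints in the fit, and 0 to 3 with 1 library left out. The replicate block, the pairing by library, changed no other count by more than 1.5 times. Raised bins went from 62 to 14, 15 and 29, and those shared by all 4 viewpoints from 19 to 2, 1 and 10, at 2 times the fit, with a fit on each side alone and in 10 kb bins, and to 77 to 88 and 22 to 26 with 1 library left out.

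Directions reversed for promoter minus PSE_a in the near share with all interactions as the total (0.305 points), in the domain share with 2 Mb to each side as the total (-0.086 points) and in the decay slope from 0.5 to 10 Mb (0.0076) and with 1 library left out (-0.021 to 0.0012). The ratio to matched distance reversed the promoter contact of VPE against PSE_b (log2 0.68) and of PSE_a against PSE_b (0.12), and a promoter of 2 kb to each side made the former a call (-0.22). The causes were not tested. No named bin and no window called in the main fit reversed, while 69 of 296 and 33 of 238 values under other settings were no longer past the threshold. Windows not called were left out of this count, and the named bins were picked for large changes without overlap. Few reversals could arise among members chosen in this way. PSE_a and PSE_b had the fewest reads, and the part of depth in their counts of called bins was not tested.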
